A study of Mus musculus with 16 samples.

Results

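Aminoacyl-tRNA synthetases are the enzymes that join each amino acid to its transfer RNA, and they were followed here in mouse leukaemia cells from animals that ate graded amounts of valine. Members were taken from the deposited table by gene symbol: a single capital letter followed by "ars", with or without a final "2", together with Eprs, Farsa and Farsb. The pattern matched 37 of 12012 genes. Names ending in 2 are the 17 synthetases that work inside mitochondria, and the other 20 encode the cytosolic enzymes. The 6 branched-chain synthetases are Vars and Vars2 for valine, Iars and Iars2 for isoleucine, and Lars and Lars2 for leucine. The pattern uses symbols only.

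The cells came from T cell acute lymphoblastic leukaemia (T-ALL) carried as secondary transplants in C57BL/6 mice, and the oncogene was NOTCH-ΔE, a constitutively active Notch receptor. All groups share that oncogene, the transplant and sorting of GFP-positive cells from spleen after 3 weeks on diet. The diets held 8 g/kg valine (the control), 0.8 g/kg, 0.4 g/kg or no valine (0 g/kg). Doses follow the sample characteristics, whereas the treatment text mentions valine given in drinking water. Each diet was sequenced as total RNA and as ribosome-protected fragments (RPF), short pieces of mRNA covered by a ribosome at the time of nuclease treatment, with 2 libraries of each kind. Within a diet these carry the names T-ALL 2 and T-ALL 3. Whether the names stand for separate tumours or separate mice is not stated, so a p-value here measures only the spread among the libraries, which may be technical.

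Each synthetase recognises its own amino acid and charges it to the matching tRNA, and the charged tRNA is what the ribosome uses. When an amino acid runs short, uncharged tRNA activates the kinase GCN2, and translation of the transcription factor ATF4 goes up. ATF4 is known to raise the mRNA of many cytosolic synthetases together with genes of amino acid synthesis and import, while the mitochondrial synthetases, encoded by separate nuclear genes, are not typical members of that response. Several cytosolic synthetases (those for glutamate and proline, isoleucine, leucine, methionine, glutamine, lysine, arginine and aspartate) sit in one multisynthetase complex.

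Levels are in FPKM, which divides the fragments of a gene by its length and by the size of the library. Total RNA libraries held 364685 to 1269364 reads and RPF libraries 41848 to 205545 reads, so the RPF values are the less precise. The shallowest RPF library was the T-ALL 2 control. Of 9 T cell markers, 7 had reads in all 16 libraries, among them Cd3e, a chain of the T cell receptor complex, between 396 and 830 FPKM in total RNA. The other two were low, with Cd4 at 0 in 1 library of each fraction and Cd8a at 0 in 2 RPF libraries, and Ptcra ranged from 3.69 to 59.3 FPKM in total RNA. Summed over 11 neutrophil markers, the total RNA libraries at 0 g/kg held 4.72 and 2.22 reads per 10000, and the other 6 libraries held 0.110 to 0.723. Summed over 10 erythroid markers, the 2 control libraries held 1.69 and 4.25 reads per 10000 and the 6 low-valine libraries 0.270 to 1.16. In RPF the neutrophil markers held 27.6 and 3.41 reads per 10000 at 0 g/kg and 0.239 to 1.20 in the other 6 libraries, and the erythroid markers 4.78 and 17.5 in the controls and 0.498 to 4.44 in the low-valine libraries. The 3 B cell markers in the table held 0.653 and 0.771 at 0 g/kg in total RNA and 0.0548 to 0.349 in the other 6 libraries. These markers of other blood cells move with diet, and their part in the results below was not tested except where a value is given.

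Each diet was compared with 8 g/kg in total RNA, in RPF and in their ratio, which makes 9 comparisons. The 3 comparisons of a measure share the same 2 control libraries and are therefore given side by side. A gene was called where limma's moderated test on log2(FPKM + 0.5) gave an adjusted p under 0.05 over all genes tested. In bulk samples, fewer cells of a type and less RNA per cell cannot be told apart. All 37 synthetases passed the minimum mean level of 1 FPKM in both fractions. No synthetase was called in any of the 9 comparisons, and no gene of the whole table was called either, a background of 0% among 10054 genes in total RNA, 9718 in RPF and 9361 in the ratio. At an unadjusted limma p under 0.05, between 0 and 7 synthetases passed per comparison. Of all genes, 1.31% to 5.15% were higher at that p, depending on the comparison. A second fit, limma's voom on recovered reads, also called 0 synthetases in all 9 comparisons. The changes below are therefore sizes and directions that did not pass the test.

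The members differed widely in how much mRNA they had. Over all 8 total RNA libraries, Vars had the highest mean level at 171 ± 8.38 FPKM (SD, n = 8), followed by Gars at 156 ± 21.6, Kars at 154 ± 15.4 and Dars at 137 ± 20.2. The spreads of Gars and Kars overlap that of Vars, and those of Gars, Kars and Dars overlap one another. The glycyl and lysyl enzymes, Gars and Kars, are each known to serve cytosol and mitochondria from a single gene. A middle set lay between 44.4 and 84.8 FPKM, in the order Qars, Eprs, Nars, Sars, Rars, Farsb, Mars, Tars, Hars, Iars and Lars. Farsa, at 37.6 FPKM, and Farsb, at 66.3 FPKM, are the 2 subunits of the phenylalanyl enzyme. Yars, Aars, Wars and Cars were the lowest of the cytosolic group, at 35.1, 34.7, 29.9 and 19.8 FPKM.

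The mitochondrial synthetases were lower, with means of 1.16 to 31.4 FPKM against 19.8 to 171 for the cytosolic ones. Their medians were 10.2 and 64.0 FPKM. Iars2 was the highest of them at 31.4 FPKM, followed by Sars2 at 21.2, Rars2 and Tars2 at 17.6 each and Vars2 at 15.7. Fars2 (12.9 FPKM), Yars2 (10.9), Cars2 (10.9), Aars2 (10.2), Hars2 (9.06) and Lars2 (8.31) formed a continuous run. Pars2 (5.96 FPKM), Ears2 (3.41), Nars2 (3.35), Mars2 (3.28) and Wars2 (1.16) closed the list. In RPF, 9 of the 17 had no read in at least 1 library, and mean reads per library ran from 0.625 to 17.25, so most mitochondrial footprint values rest on a handful of reads.

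Vars, the enzyme that charges valine, had the highest mean level of the synthetases in total RNA and hardly varied with diet there. Its level was 183 and 170 FPKM at 0 g/kg, 173 and 171 at 0.4 g/kg, 178 and 159 at 0.8 g/kg, and 175 and 160 on the control diet, T-ALL 2 first. The low-valine libraries overlapped the controls at every dose. Its log2 changes came to 0.08, 0.04 and 0.01 at 0, 0.4 and 0.8 g/kg, each with an SE of 0.13 and adjusted limma p-values of 0.948 to 1. Its gene lies at chr17:35000907-35016329 in GRCm38.

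Iars was the only branched-chain synthetase that stood above both controls in all 6 low-valine total RNA libraries. Its FPKM was 47.8 and 49.6 at 0 g/kg, 62.1 and 58.6 at 0.4 g/kg, 43.1 and 55.7 at 0.8 g/kg, and 38.7 and 33.9 on the control diet. The groups did not overlap at any dose, and 0.4 g/kg was the highest. The log2 changes were 0.42, 0.73 and 0.43 at 0, 0.4 and 0.8 g/kg (SE 0.19 each), with adjusted limma p-values of 0.767 to 1.

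Lars did not follow Iars. Lars had 49.3 and 42.5 FPKM at 0 g/kg, 45.6 and 38.4 at 0.4 g/kg, 49.1 and 42.6 at 0.8 g/kg, and 43.8 and 43.7 on the control diet. Its log2 changes were 0.07, -0.06 and 0.06, smaller than the SE of 0.19, and the groups overlapped at each dose.

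All 3 mitochondrial branched-chain synthetases had lower means than the controls at each dose. Iars2 had 35 and 23.8 FPKM at 0 g/kg, 29.9 and 26.5 at 0.4 g/kg, 27.9 and 33.9 at 0.8 g/kg, and 43.8 and 30.3 on the control diet, with changes of -0.33, -0.37 and -0.24. It was lowest relative to the controls at 0.4 g/kg, where alone the groups did not overlap. Lars2 had 6.76 and 8.07 FPKM at 0 g/kg, 9.47 and 6.79 at 0.4 g/kg, 6.40 and 8.62 at 0.8 g/kg, and 8.34 and 12.0 on the control diet, with changes of -0.41, -0.30 and -0.41, and lay below both controls at 0 g/kg only. Vars2 had 17.8 and 9.81 FPKM at 0 g/kg, 19.4 and 14.6 at 0.4 g/kg, 12.3 and 16.5 at 0.8 g/kg, and 16.6 and 18.4 on the control diet, with changes of -0.39, -0.06 and -0.29, and lay below both controls at 0.8 g/kg only. None of these changes reached 2 SE, and the adjusted limma p-values were 0.881 to 1.

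**Figure D1:**
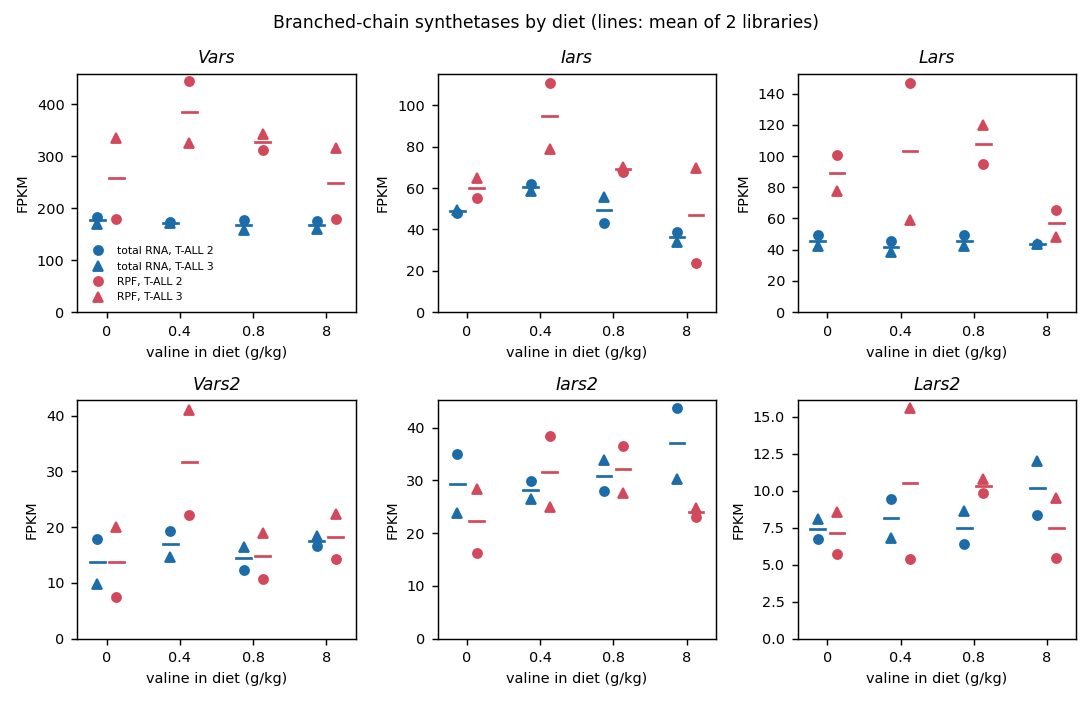
FPKM of the 6 branched-chain synthetases (vertical axis, from 0) by valine in the diet (horizontal axis, g/kg). Blue marks are total RNA and red marks RPF, circles T-ALL 2 and triangles T-ALL 3, and short lines the mean of 2 libraries. Total RNA of Vars stays between 159 and 183 FPKM in all 8 libraries, whereas Iars lies above its controls of 38.7 and 33.9 FPKM at each lower dose.

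Set against the other synthetases in total RNA, the cytosolic branched-chain genes did not stand out as a block. The mitochondrial ones had lower medians than the other mitochondrial genes at each dose. The median total RNA change of the 3 cytosolic branched-chain genes was 0.08, 0.04 and 0.06 at 0, 0.4 and 0.8 g/kg, beside 0.12, 0.15 and 0.06 for the 17 other cytosolic synthetases. The 3 mitochondrial branched-chain genes had medians of -0.39, -0.30 and -0.29, beside 0.0051, 0.23 and -0.06 for the 14 other mitochondrial ones. The median over all genes tested was -0.04, -0.01 and -0.03. The gap between the 2 kinds of mitochondrial genes was not tested, and single genes in both kinds carried SEs of 0.24 to 0.92.

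Besides Iars, several cytosolic synthetases for other amino acids were higher in total RNA. Cars, the cysteinyl enzyme, had 20.1 and 36.7 FPKM at 0 g/kg, 26.6 and 23.2 at 0.4 g/kg, 12.5 and 18.9 at 0.8 g/kg, and 10.04 and 10.5 on the control diet. All 6 low-valine libraries were above both controls, and those at 0 and 0.4 g/kg were at least as high as those at 0.8 g/kg. The log2 changes were 1.37, 1.24 and 0.56 (SE 0.33), a 2.58-fold higher level at 0 g/kg on the log2(FPKM + 0.5) scale, with adjusted limma p-values of 0.389, 1 and 1.

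Yars, the tyrosyl enzyme, had 40.9 and 45.6 FPKM at 0 g/kg, 40.4 and 33.7 at 0.4 g/kg, 27.3 and 45.0 at 0.8 g/kg, and 22.6 and 25.8 on the control diet. All 6 low-valine libraries again lay above the controls, by the least in T-ALL 2 at 0.8 g/kg. Its log2 changes were 0.83, 0.60 and 0.53 (SE 0.26). Sars, the seryl enzyme, had 93.4 and 87.1 FPKM at 0 g/kg, 90.7 and 89.8 at 0.4 g/kg, 69.3 and 89.4 at 0.8 g/kg, and 64.7 and 57.3 on the control diet. It showed the same separation from the controls, with log2 changes of 0.56, 0.56 and 0.37 (SE 0.17).

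Aars, the alanyl enzyme, had 40.8 and 44.9 FPKM at 0 g/kg, 43.7 and 32.3 at 0.4 g/kg, 26.3 and 41.8 at 0.8 g/kg, and 27.7 and 20.3 on the control diet. The 4 libraries at 0 and 0.4 g/kg lay above the controls, but the T-ALL 2 library at 0.8 g/kg did not. The log2 changes were 0.84, 0.65 and 0.48 (SE 0.28). Mars, the methionyl enzyme, had 61.0 and 77.9 FPKM at 0 g/kg, 70.0 and 64.5 at 0.4 g/kg, 53.7 and 60.5 at 0.8 g/kg, and 53.4 and 52.0 on the control diet. It was above the controls in all 6 libraries, but barely so in T-ALL 2 at 0.8 g/kg, and its log2 changes were 0.38, 0.35 and 0.11 (SE 0.18).

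Nars and Gars, the asparaginyl and glycyl enzymes, were above the controls at 0 and 0.4 g/kg only. Nars had 85.7 and 95.2 FPKM at 0 g/kg, 94.3 and 91.2 at 0.4 g/kg, 66.6 and 91.3 at 0.8 g/kg, and 62.1 and 71.8 on the control diet. Gars had 166 and 173 FPKM at 0 g/kg, 179 and 177 at 0.4 g/kg, 122 and 155 at 0.8 g/kg, and 135 and 139 on the control diet. At 0.8 g/kg the low-valine libraries of both genes overlapped the controls.

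**Figure D2:**
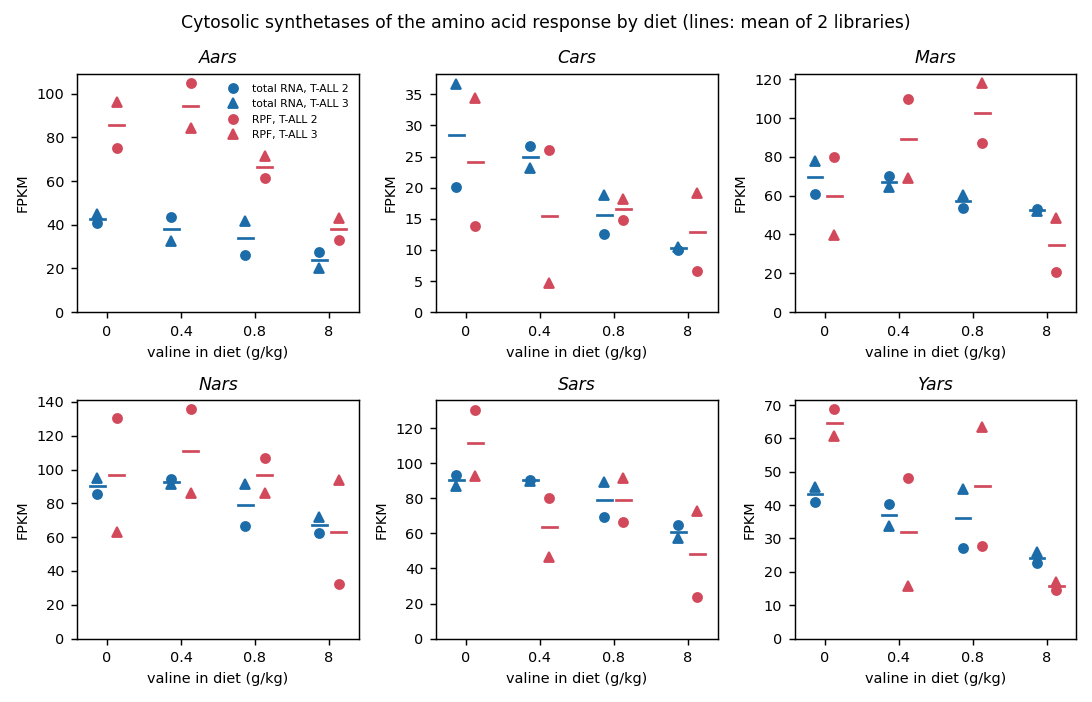
FPKM (vertical axis, from 0) of Aars, Cars, Mars, Nars, Sars and Yars by valine in the diet (g/kg). Blue marks are total RNA, red marks RPF, circles T-ALL 2, triangles T-ALL 3 and short lines the mean of 2 libraries. In total RNA the controls of Cars, 10.04 and 10.5 FPKM, lie below all 6 low-valine libraries, while RPF values scatter more.

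These genes belong to a list of 13 cytosolic synthetases known from other work as ATF4-induced: Aars, Cars, Eprs, Gars, Iars, Lars, Mars, Nars, Sars, Tars, Vars, Wars and Yars. In total RNA at 0 g/kg, 9 of the 13 had both libraries above both controls and 0 had both below. Among all genes tested, 16.1% lay above the controls in that way and 20.3% below. At 0.4 g/kg, 9 lay above and 1, Wars, below, beside a background of 18.4% above and 19% below. At 0.8 g/kg, 5 lay above and 1 below, beside 13.8% and 17.8%. The median log2 change of the list was 0.38, 0.38 and 0.11 at 0, 0.4 and 0.8 g/kg, and the median of all genes tested was -0.04, -0.01 and -0.03.

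An unadjusted limma p under 0.05 was reached by 4 members at 0 g/kg (Aars, Cars, Sars and Yars, all higher), where 2.57% of all genes were higher at that p. It was reached by 7 at 0.4 g/kg (those 4 with Gars, Iars and Nars, all higher), where the background was 1.59%, and by 0 at 0.8 g/kg, where it was 1.31%. All of these members are in the ATF4-induced list. The list was drawn up with earlier results of these samples known, so its direction is not independent evidence.

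Of the 37, 5 synthetases were above both controls in all 6 low-valine total RNA libraries: Cars, Iars, Mars, Sars and Yars. That is 5 of the 13 ATF4-induced genes, beside 0 of the 7 other cytosolic and 0 of the 17 mitochondrial genes, and beside 3.1% of all genes tested. No synthetase was below both controls in all 6, as 4.39% of all genes were. With the 2 libraries at 0 g/kg left out, where the neutrophil markers were high, no further gene joined these 5 in the other 4, while the background was 6.31%. That the 5 themselves stay is fixed by the count. With T-ALL 2 at 0.8 g/kg left out the count was 9, with Aars, Eprs, Gars and Nars added, beside a background of 4.48%.

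None of the other 7 cytosolic synthetases was above both controls in all 6 libraries. Their median log2 change in total RNA was -0.14, 0.04 and -0.06, with 0 above and 3 below both controls at 0 g/kg, 1 above and 0 below at 0.4 g/kg, and 0 above and 3 below at 0.8 g/kg. Over all genes the shares were 16.1% and 20.3%, 18.4% and 19%, and 13.8% and 17.8% at the doses in that order. Qars, the glutaminyl enzyme, had 75.05 and 76.3 FPKM at 0 g/kg against 93.9 and 90.4 on the control diet, with the groups apart and a log2 change of -0.28 (SE 0.20). Kars, the lysyl enzyme, had 159 and 124 FPKM at 0 g/kg against 172 and 160, and its change was -0.24 (SE 0.16). Within the ATF4-induced list, Wars, the tryptophanyl enzyme, went the same way as these 2, with 32.2 and 22.6 FPKM at 0 g/kg against 36.5 and 32.0 and a log2 change of -0.33 (SE 0.24), although its groups overlapped at that dose.

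The difference between genes inside and outside the multisynthetase complex was not tested. The 8 synthetases of the complex had median total RNA changes of 0.08, 0.07 and -0.06, and the 12 outside it 0.27, 0.33 and 0.14, higher at each dose. An unadjusted limma p under 0.05 was reached by 0 of 8 in the complex and 4 of 12 outside it at 0 g/kg, and by 1 and 6 at 0.4 g/kg. All of these were higher, beside 2.57% and 1.59% of all genes. The split overlaps the ATF4-induced list, which holds Eprs, Iars, Lars and Mars of the complex. Outside the complex it holds all genes but Farsa, Farsb and Hars. Iars and Mars of the complex, and Cars, Sars and Yars outside it, were the genes above both controls in all 6 libraries.

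The mitochondrial synthetases had 7 genes higher and 10 lower at 0 g/kg, 11 and 6 at 0.4 g/kg, and 4 and 13 at 0.8 g/kg. Their median log2 change in total RNA was -0.10, 0.09 and -0.24 at 0, 0.4 and 0.8 g/kg, with 1, 3 and 1 of 17 genes above both controls, beside 16.1%, 18.4% and 13.8% of all genes, and 2, 3 and 5 below, beside 20.3%, 19% and 17.8%. The median at 0.8 g/kg ran from -0.16 to -0.064 with any 1 of the 4 libraries left out and was -0.047 with voom. None reached an unadjusted limma p under 0.05. Sars2, the seryl enzyme of mitochondria, had the highest mean change at 0 and 0.8 g/kg, 0.55 and 0.60 (SE 0.43), but its control libraries already differed, at 23.9 and 11.1 FPKM. Mars2, the methionyl enzyme, was lowest at 0.8 g/kg, with 3.04 and 1.62 FPKM against 3.49 and 4.82 and a log2 change of -0.75 (SE 0.49). Aars2, the alanyl enzyme, had 8.24 and 8.31 FPKM at 0.4 g/kg against 9.93 and 14.7 (change -0.52, SE 0.31), opposite in sign to cytosolic Aars at the same dose. Its change at 0.8 g/kg was -0.41, and Mars2 had -0.37 at 0.4 g/kg.

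**Figure D3:**
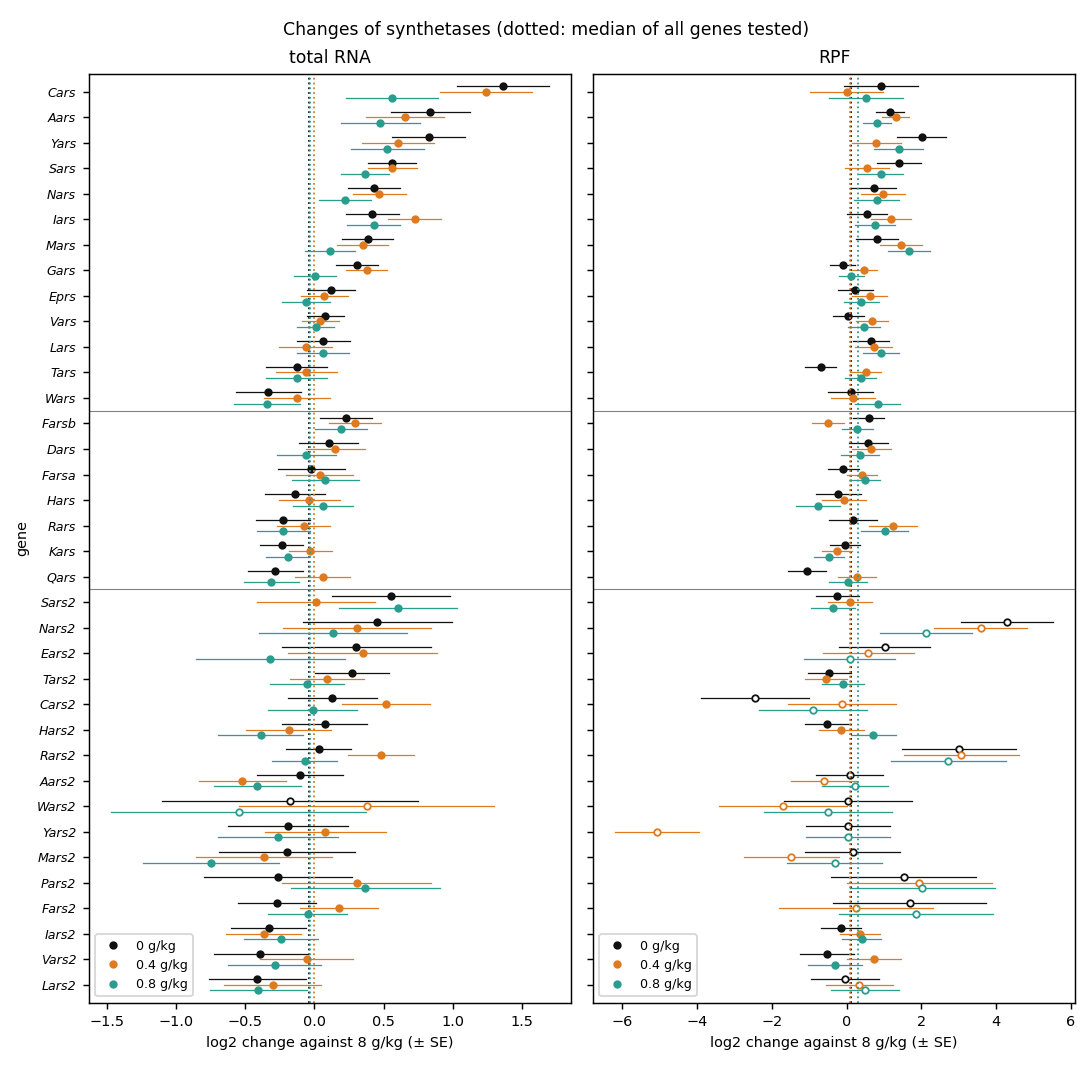
Log2 change against 8 g/kg (horizontal axis, points, with bars of 1 SE from the moderated variance) for 36 synthetases (vertical axis) at 0, 0.4 and 0.8 g/kg, in total RNA (left) and RPF (right, on a wider scale). Grey lines separate the 13 ATF4-induced cytosolic, 7 other cytosolic and the mitochondrial genes, dotted lines mark the median of all genes tested, and open points have fewer than 5 reads on average. Cars, Aars, Yars and Sars head the total RNA panel, with changes of 1.37 to 0.56 at 0 g/kg.

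Summed over genes, the synthetases took a slightly larger part of the mRNA when valine was low. The 20 cytosolic genes together held 45.8 ± 0.243 reads per 10000 of total RNA without valine, 45.3 ± 1.43 at 0.4 g/kg, 40.7 ± 3.09 at 0.8 g/kg and 39.2 ± 1.52 on the control diet (SD, n = 2). The difference at 0 and 0.4 g/kg was larger than the spread between libraries, and that at 0.8 g/kg was not. An exact permutation test of 2 against 2 libraries cannot give a p under 0.333, so none is given for these sums.

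Of these reads, the 13 ATF4-induced genes held 32.2 and 33.7 reads per 10000 at 0 g/kg, 32.5 and 30.7 at 0.4 g/kg, 26.3 and 30.5 at 0.8 g/kg, and 26.4 and 25.6 on the control diet, with 95% Wilson intervals of at most 2 reads per 10000 to either side. The 4 libraries at 0 and 0.4 g/kg stood above the controls and beyond those intervals, and at 0.8 g/kg T-ALL 3 stood above the controls and T-ALL 2 among them. The 7 other cytosolic genes held 12.8 ± 0.813 at 0 g/kg and 13.2 ± 0.932 on the control diet. The mitochondrial genes held 6.39 ± 0.453 and 6.59 ± 0.167. Both groups overlapped their controls at 0 g/kg. At 0.8 g/kg both lay below both controls, with 5.71 and 5.98 against 6.71 and 6.48 for the mitochondrial genes and 12.24 and 12.39 against 13.83 and 12.52 for the other cytosolic genes, and the Wilson intervals of T-ALL 3 at 0.8 g/kg overlapped those of its control.

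**Figure D4:**
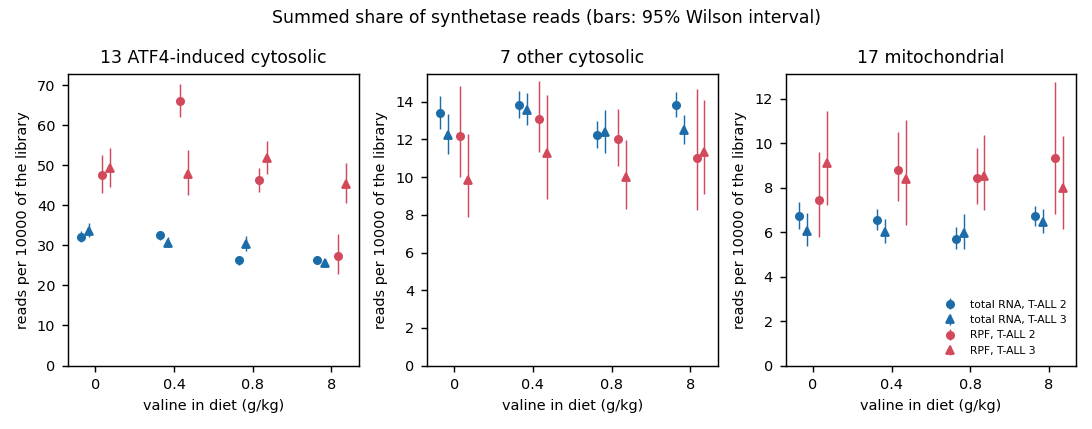
Reads of 13 ATF4-induced cytosolic, 7 other cytosolic and 17 mitochondrial synthetases per 10000 reads of a library (vertical axes, each from 0) by valine in the diet (g/kg). Blue is total RNA, red RPF, circles T-ALL 2, triangles T-ALL 3, and bars are 95% Wilson intervals that cover counting error only. In total RNA the ATF4-induced share is 30.7 to 33.7 at 0 and 0.4 g/kg and 25.6 to 26.4 on the control diet, and in RPF the T-ALL 2 control is the lowest at 27.5.

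In ribosome-protected fragments the cytosolic synthetases also averaged higher on low valine, but the 2 control libraries differed from each other by as much as the diets did. The 13 ATF4-induced genes held 47.7 and 49.3 reads per 10000 at 0 g/kg, 66.1 and 47.8 at 0.4 g/kg, 46.2 and 51.7 at 0.8 g/kg, and 27.5 and 45.4 on the control diet. All 6 low-valine libraries lay above both controls, by a wide margin over the T-ALL 2 control and a narrow one over the T-ALL 3 control. Taken against the control of the same number, the log2 ratios of the share at 0, 0.4 and 0.8 g/kg were 0.79, 1.27 and 0.75 in T-ALL 2 and 0.12, 0.08 and 0.19 in T-ALL 3.

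Per gene, the median RPF change of the cytosolic synthetases was 0.39, 0.59 and 0.51 at 0, 0.4 and 0.8 g/kg, and that of the mitochondrial ones 0.03, 0.09 and 0.08. The median of all genes tested was 0.12, 0.08 and 0.30. The scaling moves these values: with voom on recovered reads, the median of all genes became -0.02, -0.16 and -0.18 and that of the cytosolic synthetases 0.26, 0.48 and 0.32, which kept the cytosolic genes above all genes by 0.28, 0.63 and 0.50. Without the T-ALL 2 control the cytosolic medians were -0.00078, 0.29 and 0.15, beside medians of all genes of 0, 0 and 0.18.

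Both libraries lay above both controls for 5 of 20 cytosolic genes at 0 g/kg, beside 16.7% of all genes, for 8 at 0.4 g/kg, beside 15.9%, and for 7 at 0.8 g/kg, beside 21.5%. An unadjusted limma p under 0.05 was reached at 0 g/kg by Aars, Sars, Yars and Nars2, all higher, beside 4.95% of all genes. At 0.4 g/kg it was reached by Aars, Mars and Nars2, higher, beside 4.18%, and by Yars2, lower, beside 2.49%. At 0.8 g/kg it was reached by Mars alone, beside 4.72%.

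Among the 20 cytosolic synthetases, only Aars had footprints above both controls in all 6 low-valine libraries. Its RPF level was 75.3 and 96.2 FPKM at 0 g/kg, 105 and 84.3 at 0.4 g/kg, 61.4 and 71.6 at 0.8 g/kg, and 33.0 and 42.9 on the control diet. The same held for 1 other member, Nars2, whose controls held 0 and 0 reads, and for 4.45% of all genes. A count of 2 among the 37 members is close to that share. That count of 2 became 6 without the 0 g/kg libraries, 5 without the T-ALL 2 control and 11 without the T-ALL 3 control, beside 8.65%, 11.9% and 15.4% of all genes. The log2 changes were 1.17, 1.31 and 0.81 (SE 0.37), and the adjusted limma p-values 0.579, 0.644 and 0.893.

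Yars had 68.7 and 60.8 FPKM of footprints at 0 g/kg, 48.1 and 15.6 at 0.4 g/kg, 27.9 and 63.5 at 0.8 g/kg, and 14.5 and 16.97 on the control diet. It was apart from the controls at 0 and 0.8 g/kg but not at 0.4 g/kg, with log2 changes of 2.01, 0.79 and 1.40 (SE 0.66). Mars had 79.7 and 39.7 FPKM at 0 g/kg, 110 and 69.2 at 0.4 g/kg, 87.1 and 118 at 0.8 g/kg, and 20.6 and 48.3 on the control diet. It was apart at 0.4 and 0.8 g/kg, with log2 changes of 0.82, 1.45 and 1.66 (SE 0.56). Sars, with 131 and 92.9 FPKM at 0 g/kg against 23.6 and 72.6, shows how far apart the controls could lie. The controls held 2 and 4 reads for Yars, 3 and 12 for Mars and 4 and 21 for Sars. The sizes of these changes therefore rest on few reads.

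Footprints of Vars differed more within than between the 0 g/kg and control diets. Vars had 180 and 334 FPKM at 0 g/kg, 443 and 326 at 0.4 g/kg, 311 and 343 at 0.8 g/kg, and 178 and 316 on the control diet. The valine-free libraries overlapped the controls, and only the 0.4 g/kg libraries were both above both controls. The log2 changes were 0.05, 0.68 and 0.46 (SE 0.42), with adjusted limma p-values of 1, 0.806 and 0.928. At 0.4 g/kg the change was 1.31 in T-ALL 2 and 0.04 in T-ALL 3.

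Iars footprints were 55.2 and 65.0 FPKM at 0 g/kg, 111 and 78.7 at 0.4 g/kg, 67.9 and 70.2 at 0.8 g/kg, and 23.8 and 69.7 on the control diet. Lars footprints were 101 and 77.4, 147 and 58.9, 95.2 and 120, and 65.6 and 48.0 FPKM in the same order. Iars was apart from its controls only at 0.4 g/kg, and Lars at 0 and 0.8 g/kg. The log2 changes were 0.55, 1.184 and 0.75 (SE 0.54) for Iars and 0.65, 0.73 and 0.92 (SE 0.49) for Lars, whose total RNA was flat. Together, Vars, Iars and Lars had a mean RPF share 1.15, 1.55 and 1.30 times that of the controls at 0, 0.4 and 0.8 g/kg. Their controls differed, at 12.4 and 20.4 reads per 10000. The cytosolic genes other than branched-chain had 1.30, 1.40 and 1.24 times, and the difference was not tested.

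The mitochondrial branched-chain genes had few footprints. Iars2, the best covered with 17.25 reads per library, had 16.2 and 28.3 FPKM at 0 g/kg, 38.4 and 24.9 at 0.4 g/kg, 36.6 and 27.6 at 0.8 g/kg, and 23.1 and 24.8 on the control diet. Vars2 had 7.53 and 19.996, 22.2 and 41.1, 10.8 and 18.98, and 14.3 and 22.3 FPKM in the same order, and Lars2 5.72 and 8.55, 5.41 and 15.6, 9.83 and 10.8, and 5.43 and 9.54 FPKM. The low-valine libraries overlapped the controls at 0 g/kg for all 3 genes, and Vars2 had a log2 change of -0.52 (SE 0.73) there. Iars2 lay above both controls at 0.4 and 0.8 g/kg and Lars2 at 0.8 g/kg, with changes about the size of the SE or smaller.

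Other cytosolic footprints moved in both directions at single doses. Qars was lower at 0 g/kg, with 21.7 and 28.9 FPKM against 41.3 and 68.4 and a log2 change of -1.07 (SE 0.51), as was Tars, the threonyl enzyme, with 29.5 and 46.2 FPKM against 48.0 and 74.9 and a change of -0.69 (SE 0.41). At 0.4 and 0.8 g/kg both were close to or above the control mean, with changes of 0.27 and 0.02 for Qars and 0.51 and 0.38 for Tars. Rars, the arginyl enzyme, was higher at 0.4 and 0.8 g/kg by 1.24 and 1.01 (SE 0.64), from controls of 19.99 and 64.4 FPKM. Those controls held 2 and 11 reads. Hars and Kars had log2 changes of -0.76 (SE 0.59) and -0.47 (SE 0.40) at 0.8 g/kg, and Farsb had -0.50 (SE 0.42) at 0.4 g/kg. The groups were apart for Kars and Farsb but overlapped for Hars.

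Among the mitochondrial genes, the largest fitted RPF changes rested on libraries with no read. Nars2, the asparaginyl enzyme, had 5 and 2 reads without valine in the diet, 2 and 2 with 0.4 g/kg, 1 and 1 with 0.8 g/kg, and 0 and 0 on the control diet. Yars2, the tyrosyl enzyme, had 0 and 0 reads at 0.4 g/kg and 2 to 11 in the other 6 libraries. A count of 0 allows up to 3 reads, so no fold is given for either gene. Tars2, the threonyl enzyme, had a log2 change of -0.55 (SE 0.57) at 0.4 g/kg, with 23.2 and 12.6 FPKM against 23.3 and 27.3.

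The ratio of RPF to total RNA, a measure of translational efficiency was compared next. The median log2 change of the ratio was 0.24, 0.42 and 0.43 for the cytosolic genes at 0, 0.4 and 0.8 g/kg, 0.21, 0.07 and 0.43 for the mitochondrial ones, and 0.20, 0.14 and 0.36 for all genes tested. In T-ALL 2 the cytosolic medians were 0.42, 0.90 and 0.88, beside medians of all genes of 0.17, 0.26 and 0.38. In T-ALL 3 the cytosolic medians were -0.24, -0.14 and -0.04, beside 0.11, -0.04 and 0.21 for all genes. All changes of a number share the same control libraries, so the number and those controls cannot be told apart in this difference of sign. The groups did not overlap, with low valine higher, for 3, 6 and 6 of the 20 cytosolic genes, beside 19.8%, 18.8% and 24.5% of all genes. An unadjusted limma p under 0.05 was reached only by Nars2 (higher at 0, 0.4 and 0.8 g/kg) and Yars2 (lower at 0.4 g/kg), both of them among the 9 mitochondrial genes with an RPF library at 0 reads, beside 4.84%, 4.21% and 5.15% of all genes higher and 2.47% lower at 0.4 g/kg.

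No ratio change of a branched-chain gene reached 2 SE, though those of Lars were larger than the SE at every dose. Vars changed by -0.03, 0.63 and 0.45 (SE 0.57), Iars by 0.13, 0.46 and 0.32 (SE 0.65) and Lars by 0.58, 0.79 and 0.86 (SE 0.53). Lars was the only one of the 3 whose 2 low-valine pairs lay above both control pairs at every dose. At 0, 0.4 and 0.8 g/kg taken singly, 19.8%, 18.8% and 24.5% of all genes did so. The share of all genes that did so at every dose was not counted. Iars2 changed by 0.18, 0.73 and 0.64 (SE 0.70), Lars2 by 0.37, 0.64 and 0.89 (SE 0.72) and Vars2 by -0.13, 0.80 and -0.02 (SE 0.84). Among the others, Yars was the highest at 0 g/kg with 1.183 (SE 0.64), Rars at 0.4 g/kg with 1.32 (SE 0.83) and Mars at 0.8 g/kg with 1.55 (SE 0.71), counting genes with at least 5 reads on average in both fractions. The RPF controls of Yars held 2 and 4 reads, those of Rars 2 and 11 and those of Mars 3 and 12. Sars2 had the lowest ratio changes by the same rule at 0 and 0.8 g/kg, -0.80 and -0.97 (SE 0.49). Qars and Tars2 followed at 0 g/kg with -0.79 (SE 0.79) and -0.74 (SE 0.53). At 0.4 g/kg the low ones included Farsb with -0.79 (SE 0.55) and Tars2 with -0.64 (SE 0.53). Wars was among the highest at 0.8 g/kg, with 1.17 (SE 0.60), and Hars among the lowest, with -0.82 (SE 0.81). Rars had 1.24 at 0.8 g/kg, Mars 1.10 at 0.4 g/kg and Dars 0.48 (SE 0.85) at 0 g/kg.

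Beneath the diet comparison, the synthetases kept different footprint levels relative to mRNA in all diets. This could be read for 19 members among 2164 genes with at least 10 reads per library on average in both fractions. Aars had 1.98 times as much RPF as total RNA FPKM (mean log2 0.98 ± 0.36, SD over 8 pairs of libraries), at percentile 94.5 of those genes. Lars, at 1.89 times, and Vars, at 1.71 times, were at percentiles 92.8 and 88.1. In Aars and Lars all 8 pairs were above a ratio of 1.

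At the other end, Dars, the aspartyl enzyme, had 0.472 times as much RPF as total RNA FPKM, at percentile 8.55. Qars had 0.555 times and Kars 0.627 times, at percentiles 12.1 and 16.3. All 8 pairs of these 3 genes were below a ratio of 1. The 18 cytosolic members in this set had a median log2 ratio of -0.0040, beside 0.05 for all 2164 genes, so the synthetases were spread over the distribution rather than shifted. The 8 pairs share their libraries, and the ratio carries the footprint protocol and the gene models of the authors' table.

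**Figure D5:**
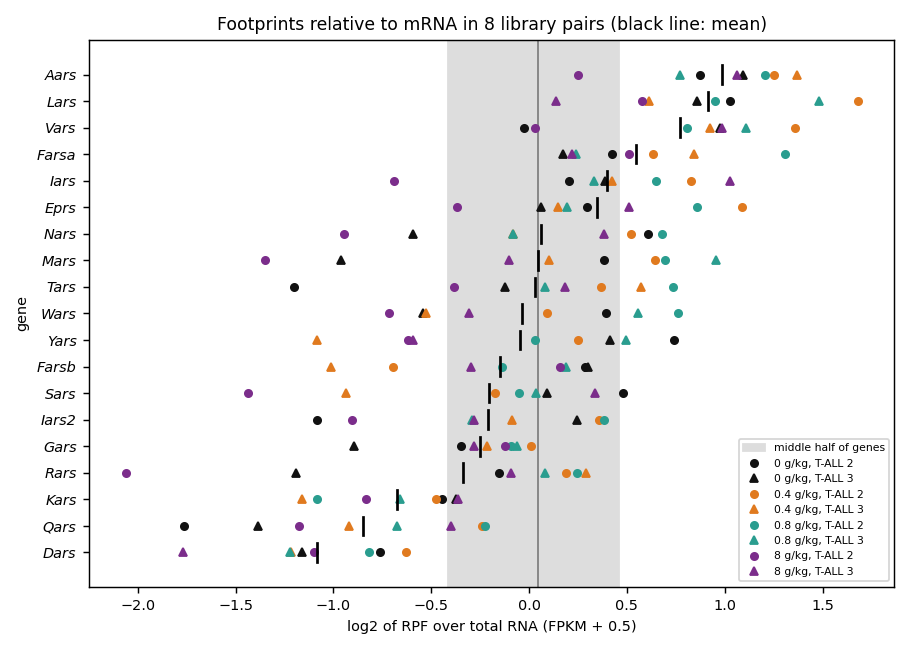
Log2 of RPF over total RNA, both as FPKM + 0.5 (horizontal axis), for the 19 synthetases with at least 10 reads per library in both fractions (vertical axis). Each point is a pair of libraries of the same diet and number, the black line their mean, and the grey band and line the quartiles and median of 2164 genes. The means of Aars, Lars, Vars and Farsa lie right of the band and those of Dars, Qars and Kars left of it.

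Promoter sequences were set beside these values because part of the cytosolic group is known to be bound by ATF4. RefSeq windows of 300 bases (GRCm38.p6, 250 before the start site and 50 from it on) were available for 27 of the 37 members. Both strands were searched for TGATGNAA, the core of the C/EBP-ATF response element, with N any base. It was found in 1304 of 32851 windows, or 3.97%. Among the members it was found in 5: Aars, Gars, Iars, Tars and Yars. All 5 are among the 8 ATF4-induced genes with a window, and 0 of 5 other cytosolic and 0 of 14 mitochondrial windows held it. A match of letters is a description and not a shown binding site, and Mars, Sars and Eprs, also of the ATF4-induced list, had a window without it. The windows of Cars, Hars, Hars2, Lars, Nars, Pars2, Rars, Vars and Wars were not used here.

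The stretches that hold the match are shown 5′ to 3′ on the strand of the gene, with the match in capitals. TTGCATCA and TTTCATCA are the element read on the opposite strand. The first lines give the 250 bases before the start site of Aars (chr8:111033592-111033841, plus strand), Gars (chr6:55037751-55038000, plus strand) and Tars (chr15:11399659-11399908, minus strand). The other lines give 30 bases across the start site of Aars (chr8:111033840-111033869, plus strand), Iars (chr13:49682126-49682155, plus strand) and Yars (chr4:129189895-129189924, plus strand).
Aars upstream: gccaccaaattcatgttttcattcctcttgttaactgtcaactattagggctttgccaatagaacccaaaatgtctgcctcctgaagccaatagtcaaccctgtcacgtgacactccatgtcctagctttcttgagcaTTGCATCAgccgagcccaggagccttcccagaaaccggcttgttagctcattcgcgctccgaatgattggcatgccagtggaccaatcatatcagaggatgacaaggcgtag
Gars upstream: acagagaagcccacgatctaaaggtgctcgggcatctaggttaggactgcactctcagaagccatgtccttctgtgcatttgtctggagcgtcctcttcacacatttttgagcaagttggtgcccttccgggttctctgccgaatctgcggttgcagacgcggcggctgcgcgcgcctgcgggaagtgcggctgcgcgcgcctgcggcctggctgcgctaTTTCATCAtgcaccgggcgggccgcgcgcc
Tars upstream: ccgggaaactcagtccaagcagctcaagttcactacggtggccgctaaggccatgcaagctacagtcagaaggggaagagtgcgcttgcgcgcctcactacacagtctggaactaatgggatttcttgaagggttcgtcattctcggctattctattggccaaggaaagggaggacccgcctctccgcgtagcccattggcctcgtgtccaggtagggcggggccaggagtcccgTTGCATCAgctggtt
Aars start: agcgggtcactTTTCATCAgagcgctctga
Iars start: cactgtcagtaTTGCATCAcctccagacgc
Yars start: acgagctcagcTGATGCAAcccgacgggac

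The first base of the match lay at -112 and at 10 in Aars, at -30 in Gars, at 8 in Iars, at -15 in Tars and at 4 in Yars, counted with the start site as 1. The total RNA of the 5 genes did not move alike: the log2 changes at 0 g/kg were 0.84 for Aars, 0.83 for Yars, 0.42 for Iars, 0.31 for Gars and -0.13 for Tars. Sars, with no match in its window, changed by 0.56.

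The wider tRNA pathway was read from a list of 27 genes for charging accessory factors, tRNA export and repair, and elongation factors, all of them in the table. None was called in any comparison. In total RNA at 0 g/kg their median log2 change was -0.14, with 1 gene above both controls and 5 below, beside 16.1% and 20.3% of all genes. Aimp2, a scaffold of the multisynthetase complex, had 37.8 and 32.5 FPKM at 0 g/kg, 47.4 and 43.3 at 0.4 g/kg, 36.96 and 41.1 at 0.8 g/kg, and 50.9 and 50.3 on the control diet. It was below both controls in all 6 libraries, with log2 changes of -0.52, -0.16 and -0.37 (SE 0.18) and adjusted limma p-values of 0.647 to 1. Eef1b2, an elongation factor subunit, was also below both controls in all 6, and Eef1g, another subunit of that factor, was above, by 0.14, 0.06 and 0.16 (SE 0.10). That makes 2 of 27 genes below and 1 above in all 6, beside 4.39% and 3.1% of all genes. Trnt1, which adds the CCA end to tRNA, had a change of -0.52 (SE 0.28) at 0 g/kg. At 0.4 g/kg, 5 pathway genes lay above both controls and 5 below, beside 18.4% and 19% of all genes. The widest of these by the naming rule were Prorsd1 with 0.60 (SE 0.53), Pstk with 0.31 (SE 0.39), Ptrh2, a peptidyl-tRNA hydrolase, with -0.82 (SE 0.38) and Qrsl1 with -0.72 (SE 0.47). At 0.8 g/kg, 3 lay above and 5 below, beside 13.8% and 17.8%, among them Tsfm, a mitochondrial elongation factor, with 0.39 (SE 0.33), Mtfmt with -0.54 (SE 0.36) and Elac2, which trims tRNA 3′ ends, with -0.52 (SE 0.27). Ptrh2 had 0.21 there, against its sign at 0.4 g/kg.

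Aarsd1, an editing protein that clears mischarged alanyl-tRNA, was, with Sepsecs, 1 of 2 pathway genes, of 27, whose footprints lay above both controls in all 6 low-valine libraries, beside 4.45% of all genes. Its RPF level was 51.3 and 65.7 FPKM at 0 g/kg, 32.3 and 29.97 at 0.4 g/kg, 40.9 and 60.9 at 0.8 g/kg, and 13.9 and 16.3 on the control diet, while its total RNA stayed between 46.1 and 62.2 FPKM. The log2 changes of its RPF were 1.91, 1.02 and 1.70 (SE 0.45), with adjusted limma p-values of 0.473, 0.742 and 0.732. Its RPF controls held only 1 and 2 reads, and those of Sepsecs 0 and 1. The size of these changes is therefore uncertain. Xpot, the tRNA exporter, had an RPF change of 0.94 (SE 0.64) at 0.4 g/kg. The elongation factor genes Eef1d and Eef1a1 had -0.48 (SE 0.44) and -0.49 (SE 0.33) at that dose, Eef1d had -0.59 and Eef1b2 0.16 (SE 0.56) at 0 g/kg, and Pus1, a tRNA pseudouridine synthase, had -0.46 (SE 0.54) at 0.8 g/kg.

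The amino acid synthesis genes of the same response were set beside the synthetases. A list of 11 ATF4 response genes, among them Asns and Psat1, took 20.5 ± 0.706 reads per 10000 of total RNA (SD, n = 2) without valine in the diet. The share was 17.1 ± 0.415 with 0.4 g/kg, 16.5 ± 3.84 with 0.8 g/kg and 12.2 ± 0.350 on the control diet. Asns, which makes asparagine, had 49.8 and 56.2 FPKM at 0 g/kg against 3.47 and 1.93 in total RNA. Its log2 change was 4.10 (SE 0.68) with an adjusted limma p of 0.202, set beside 1.37 for Cars as the largest synthetase change at that dose. The Asns controls held only 8 and 3 reads, so the size of its change is uncertain. Psat1 and Phgdh, enzymes of serine synthesis, had log2 changes of 0.72 (SE 0.21) and 0.19 (SE 0.14) at that dose, below Cars, Aars and Yars. These 2 genes do not stand for the list. Its median log2 change in total RNA at 0 g/kg was 1.06, beside 0.38 for the 13 ATF4-induced synthetases. Relative to the control diet, the share of this list in total RNA was 1.69, 1.41 and 1.35 times as high at 0, 0.4 and 0.8 g/kg, and that of the 13 ATF4-induced synthetases 1.27, 1.22 and 1.09 times. In RPF the list stood at 1.52, 1.25 and 1.36 times and the synthetases at 1.33, 1.56 and 1.34 times, so the order of the 2 lists turned at 0.4 g/kg. These are descriptions, and the difference between the lists was not tested.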

How the data were processed

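The series holds 16 libraries: total RNA and RPF (TruSeq Ribo Profile kit, per the labels' protocols) of GFP-positive cells on 4 diets, 2 libraries each. The authors deposited 1 table of FPKM values for 12012 genes. Per the submitters' processing notes, the tools were STAR 2.5.0c, Bowtie2 2.3.4, edgeR 3.14.0 and cutadapt 1.18, on mm10 (GRCm38). What each did, and how FPKM was computed, is not given in the sources used here. Low FPKM values step in whole reads, and all values above 0 came out whole within 0.02 reads. These recovered reads gave depths, shares and voom fits.

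Tests used limma 3.58.1 in R 4.3.3 (lmFit, eBayes with trend, two-sided) on log2(FPKM + 0.5) over the 8 libraries of a fraction, for genes with a mean of at least 1 FPKM, with Benjamini-Hochberg adjustment over all genes tested. The ratio test used RPF minus total RNA of the same diet and T-ALL number. Scripts were tested on simulated data. Depth limits RPF most, and Wilson intervals and the floor of 3 reads cover counting error only, since reads without molecular identifiers are not independent molecules.

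The members and lists were chosen with earlier results of these data known. Named were the 6 branched-chain genes and, per comparison and direction, up to 3 members (2 pathway genes) with the largest change, the same sign in both T-ALLs and at least 5 reads on average. Singled out after their values were seen were Gars, Kars, Mars, Nars, Qars and Sars in total RNA, Nars2 and Yars2 in RPF, the genes named by their ratio level, Asns, Sepsecs and, in total RNA, Eef1b2. Symbols were matched to RefSeq tables (GRCm38.p6) for positions and promoters, and all 37 matched. The valine content of the proteins was not analysed here. 1 mitochondrial member enters the counts and medians but its own values are not reported here.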

Additional observations from a re-analysis of the deposited data

How the results depend on the processing

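No synthetase was called under any alternative run, and the lowest adjusted p of a synthetase over all of them was 0.114 (limma, voom included). With the T-ALL number as a replicate block, 0 genes were called in each of the 9 comparisons. Deviations of same-numbered libraries correlated by -0.04 to 0.25 in total RNA, over 0.1 in 4 of 6 pairs of diets, and by -0.016 to 0.068 in RPF, so the numbers were not taken as pairs, for which every pair had to be over 0.1. Of the changes of named synthetases, 618 of 621 kept their direction and their side of the threshold under the settings other than leaving out a library. The comparison with valine content was not run.

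All genes called, 0 in the fits reported, became 1 with at least 10 reads and 3 with voom in total RNA at 0 g/kg. In RPF, no filter gave 47, 18 and 64 calls at 0, 0.4 and 0.8 g/kg and voom gave 6 at 0 g/kg. The cause was not tested. With a lone library taken to vary like the other groups, leaving out 1 library gave 0 to 2 calls at 0 g/kg and 0 to 28 at 0.8 g/kg in total RNA, the latter without T-ALL 2 at 0.8 g/kg, and 0 to 56 in RPF at 0 g/kg, the latter without T-ALL 3 at 0 g/kg.

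The cytosolic median in total RNA at 0 g/kg was 0.16 with quantile normalization and 0.18 with voom, and 0.069 to 0.20 with 1 library left out. The mitochondrial medians varied as follows. In total RNA they were 0.076 with voom at 0 g/kg, and -0.072 with quantile normalization and -0.047 with voom at 0.8 g/kg. In RPF they were -0.23 with quantile normalization at 0 g/kg, -0.21 with voom at 0.4 g/kg, and 0.40 with at least 10 reads (1 gene), -0.10 with quantile normalization and -0.18 with voom at 0.8 g/kg. In the ratio they were 0.73 with at least 10 reads at 0.4 g/kg, and 0.65 with a pseudocount of 0.1, 0.64 with at least 10 reads and -0.0051 with voom at 0.8 g/kg. With 1 library left out they ran -0.14 to 0.087 and -0.16 to -0.064 in total RNA at 0 and 0.8 g/kg, -0.31 to 0.20, -0.29 to 0.28 and 0.0095 to 0.42 in RPF at the doses in order, and -0.24 to 0.52, -0.78 to 0.49 and 0.28 to 0.55 in the ratio.

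With voom, Vars in RPF at 0 g/kg became -0.024, Lars2 in RPF at 0.4 g/kg -0.21 and Iars in the ratio at 0 g/kg -0.10. Leaving out 1 library turned the sign of the following changes. In total RNA the ranges were, at 0 g/kg, -0.040 to 0.17 for Lars and -0.80 to 0.024 for Vars2. At 0.4 g/kg they were -0.19 to 0.059 for Lars, -0.021 to 0.11 for Vars and -0.26 to 0.14 for Vars2. At 0.8 g/kg they were -0.50 to 0.021 for Iars2, -0.038 to 0.17 for Lars and -0.073 to 0.089 for Vars. In RPF at 0 g/kg they were -0.22 to 1.31 for Iars, -0.55 to 0.24 for Iars2, -0.42 to 0.34 for Lars2, -0.40 to 0.49 for Vars and -1.19 to 0.16 for Vars2. In RPF at 0.4 g/kg the range was -0.38 to 1.06 for Lars2, and at 0.8 g/kg the ranges were -0.014 to 1.52 for Iars and -0.70 to 0.084 for Vars2. In the ratio at 0 g/kg they were -0.73 to 0.99 for Iars, -0.49 to 0.84 for Iars2, -0.53 to 0.47 for Vars and -1.22 to 0.96 for Vars2. In the ratio at 0.4 g/kg they were -0.40 to 1.32 for Iars and -0.31 to 1.59 for Lars2. In the ratio at 0.8 g/kg they were -1.74 to 0.093 for Hars, -0.54 to 1.181 for Iars, -0.026 to 0.93 for Vars and -0.26 to 0.22 for Vars2.

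Taking library totals without histone, mtDNA-encoded and other blood cell marker genes gave a log2 ratio of -0.051 for the share of the other cytosolic genes in total RNA at 0 g/kg, and -0.04 with all reads. Alternatives chosen after seeing the data left out doubtful libraries from the count of synthetases above both controls in every low-valine library. Leaving out libraries cannot lower such a count, so a rise alone shows nothing about the synthetases. In total RNA, 5 became 9 without T-ALL 2 at 0.8 g/kg, while the share of all genes went from 3.1% to 4.48%. In RPF, 2 became 6 without the 0 g/kg libraries, 5 without the T-ALL 2 control and 11 without the T-ALL 3 control. The share of all genes went from 4.45% to 8.65%, 11.9% and 15.4% in that order.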
